A study of Mus musculus with 13 samples.

Results

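The comparison described here set brains with brain-endothelial loss of Pdcd10 that were kept at 12% oxygen for 7 days against brains of the same genotype kept at 21% oxygen. Members were the 4 KO hypoxia and the 3 KO normoxia libraries, chosen by their labels, 7 of the 13 RNA-seq libraries of the series. All 7 came from mice of the genotype Slco1c1-iCreERT2;Pdcd10fl/fl (here KO), in which a tamoxifen-regulated Cre recombinase under the Slco1c1 promoter acts in brain endothelial cells and deletes the loxP-flanked Pdcd10 gene, also called Ccm3. Both KO groups received 50 µg of 4-hydroxy-tamoxifen into the stomach on postnatal day 1, so the deletion, the Cre and the injection were shared by the groups compared. The other 6 libraries were from Pdcd10fl/fl mice without Cre (here flox), 3 flox hypoxia and 3 flox normoxia, and were used for the same oxygen contrast without the lesion model. The design text does not state if flox mice received the injection, and mentions non-injected Cre animals as further controls. The deletion, the Cre and the injection cannot be told apart between genotypes. The labels give no age at hypoxia, and call the tissue brain and every animal male.

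Cerebral cavernous malformations are clusters of dilated, leaky capillaries that form when brain endothelium loses one of the CCM proteins, of which PDCD10 is one. The CCM complex restrains MEKK3 signalling in endothelium, and its loss raises the transcription factors KLF2 and KLF4. Low oxygen stabilises the hypoxia-inducible factors (HIF), which bind DNA at the core ACGTG or GCGTG and raise genes for vessel growth, glucose uptake and glycolysis. VEGF-A and angiopoietin-2 are growth signals for endothelium. Mice held for days in mild hypoxia grow additional brain capillaries. The question posed by the series title is how hypoxia acts on angiogenic and neuroinflammatory gene programmes in this disease model.

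Expression was given as CPM, a gene's counts scaled to a common library total, with TMM, the edgeR factor that corrects for library composition. CPM summed over a gene list were scaled to the library total alone, without that factor. The KO libraries held 43631460 to 71216636 gene counts each, so 3 counts corresponded to 0.0421 to 0.0688 CPM. KO hypoxia replicate 1 stood apart: 1.72% of its counts were hemoglobin transcripts, against 0.345% to 0.419% in the other KO hypoxia libraries. It was the highest of the 4 KO hypoxia libraries for 104 of the 140 genes called higher under hypoxia and the lowest for 32 of the 62 called lower. KO normoxia replicate 2 was low in choroid plexus transcripts, with 174 CPM summed over 10 markers, against 592 and 667 CPM in the other KO normoxia libraries. Although every animal is labelled male, KO hypoxia replicates 3 and 4 and KO normoxia replicate 3 carried Xist at 577 to 743 CPM, unscaled, and almost no Y-linked transcripts. Both KO groups held libraries of each kind. KO hypoxia replicate 1 carried Y-linked transcripts, so comparisons without it are less balanced in this respect. Of the KO hypoxia libraries then left, only replicate 2 carried them, against replicates 1 and 2 in KO normoxia. In flox brains normoxia replicate 3 carried Xist at 784 CPM and no Y-linked counts, and the 3 flox hypoxia libraries all carried Y-linked transcripts, so the flox comparison is unbalanced in this respect. Pdcd10 itself gave 16.8, 16.9, 14.7 and 17.03 CPM in KO hypoxia replicates 1 to 4, against 16.2, 18.1 and 16.4 CPM in KO normoxia replicates 1 to 3. The groups overlapped (log2 difference -0.049 ± 0.067, SE, edgeR adjusted p = 0.804), so no oxygen effect on the targeted gene was detectable at this precision. The flox libraries gave 17.5, 17.6 and 17.2 CPM in flox hypoxia libraries, against 17.8, 17.3 and 16.2 CPM in flox normoxia libraries, overlapping the KO libraries, in tissue where most cells are not endothelial and keep the gene. Neuronal markers were abundant, with Snap25 at 1963 to 2013 CPM in KO hypoxia and 1944 to 2263 CPM in KO normoxia libraries.

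The genes higher in the KO brain under hypoxia included members of the sprouting, pan-endothelial, extracellular matrix, cytokine, erythroid and clock lists, and those lower were a smaller set with small differences. Of 22507 genes tested, 202 (0.897%) passed the edgeR quasi-likelihood test at an adjusted p of 0.05, 140 higher (0.622%) and 62 lower (0.275%). These shares are the background for the number of called genes in each list below. All 140 were higher in every KO hypoxia library than in any KO normoxia library, and all 62 were lower, against 6.59% and 6.04% of all genes tested that separated in those directions. The calls were chosen by a test on these same libraries, so their separation follows largely from that choice and only describes them. The higher calls were also larger: 29 exceeded 2-fold and their median log2 difference was 0.61, whereas 0 of the lower calls reached 2-fold and their median was -0.24. Without the TMM composition factor 87.3% of 245 calls were higher, against 69.3% with it, and the median log2 difference of all genes was 0.033 without and 0.0092 with it. Replicates were separate libraries whose labels do not name litters, and p-values reflect their spread alone.

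Leaving out KO hypoxia replicate 1 gave 88 higher calls (0.395% of 22278 genes) and 14 lower calls (0.0628%). Among the original calls, 75 of 140 higher genes and 14 of 62 lower genes also passed without it. The direction held in all 139 higher genes that could still be tested and in all 62 lower genes, and the medians became 0.51 and -0.22. All called genes were separated with all libraries, so leaving a library out could hardly reverse a sign. The kept direction only describes them. Ccl11, a chemokine gene named here because it was the exception, fell below the expression filter. Calls depended on the other libraries as well. Without KO hypoxia replicates 2, 3 and 4 the total was 463, 114 and 182 genes, and without KO normoxia replicates 1, 2 and 3 it was 25, 2 and 8 genes. The 2 genes that passed without KO normoxia replicate 2 were Angpt2 and Appl2, an endosomal adaptor gene named after its values were seen. With a block for replicate number, 140 genes were higher but 34 lower, and 97 and 25 of the original calls remained among them. Only KO hypoxia holds a replicate 4, so the block in effect leaves that library out of the comparison. With a term for the presence of Y-linked transcripts, 150 genes were higher (0.666%) and 51 lower (0.227%), and 123 and 44 of the original calls were among them. With that term and without KO hypoxia replicate 1, 62 genes were higher and 6 lower. Of the original calls, 50 higher and 6 lower genes passed that combined fit.

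**Figure D1:**
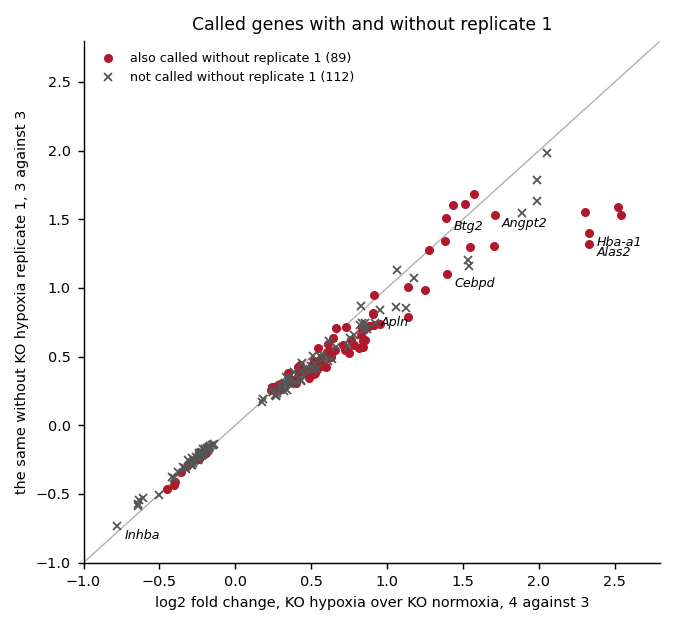
Log2 difference of KO hypoxia over KO normoxia for the called genes, with all 7 libraries on the x axis and without KO hypoxia replicate 1 on the y axis. Circles and crosses mark the 89 genes that passed in both and the 112 that passed only with all libraries; 1 called gene was not tested without replicate 1 and is not drawn. The points keep their side of 0, which follows largely from the separation of the KO groups in the called genes. Most points with the largest differences lie below the line of equality.

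In the plot of called genes with and without that library, each point is 1 gene, and distance below the diagonal is the part of its difference that came with replicate 1. The red-cell genes lay farthest below it among the genes named here.

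The vascular growth signals Angpt2, Vegfa and Apln rose, and all 3 held without replicate 1. Angpt2, which encodes angiopoietin-2, a destabilising ligand of the endothelial TIE2 receptor, had 11.7, 7.14, 8.26 and 7.82 CPM in KO hypoxia libraries, against 2.69, 2.47 and 2.89 CPM in KO normoxia libraries. Every KO hypoxia library was above every KO normoxia library, by 3.27-fold on average (log2 difference 1.71 ± 0.19, SE, edgeR adjusted p = 0.00282). Angpt2 was the single gene that passed a test for a change beyond 1.5-fold, and it was called under all 20 alternative settings that refitted the KO contrast. Without replicate 1 its log2 difference was 1.53 (edgeR adjusted p = 0.000526). In the flox brains it was 1.17 ± 0.22 (SE, edgeR adjusted p = 0.122), and the difference between the oxygen effects of KO and flox was 0.54 ± 0.28 (SE, unadjusted p = 0.0754). Without replicate 1 that difference between genotypes was 0.36.

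Vegfa, the principal HIF-induced mitogen for endothelium, had 161, 133, 137 and 130.4 CPM in KO hypoxia libraries, against 107, 86.2 and 84.01 CPM in KO normoxia libraries. The groups did not overlap. The log2 difference was 0.60 ± 0.098 (SE, edgeR adjusted p = 0.0154), 0.53 without replicate 1 (edgeR adjusted p = 0.0157) and 0.59 ± 0.10 in flox brains (SE, edgeR adjusted p = 0.111). KO and flox differed in this effect by 0.011 ± 0.14 (SE, unadjusted p = 0.942), with a 95% interval of -0.29 to 0.31. Apln, the gene for apelin, a peptide secreted by sprouting tip cells, had 63.6, 45.4, 59.1 and 46.3 CPM in KO hypoxia libraries, against 27.6, 31.3 and 26.8 CPM in KO normoxia libraries. It rose with a log2 difference of 0.91 ± 0.14 (SE, edgeR adjusted p = 0.0105) and passed without replicate 1 (0.82, edgeR adjusted p = 0.0101). Vegfc and Vegfb, ligands of lymphatic-type and of VEGFR1 receptors, were not called, with log2 differences of 0.48 ± 0.16 and -0.15 ± 0.066 (SE, edgeR adjusted p = 0.185 and 0.312).

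The VEGF receptors rose alongside. Kdr, which encodes VEGFR2, the main signalling receptor, had 36.5, 29.6, 38.3 and 27.6 CPM in KO hypoxia libraries, against 23.01, 23.8 and 20.5 CPM in KO normoxia libraries. The difference was 0.56 ± 0.11 on the log2 scale (SE, edgeR adjusted p = 0.0333). Without replicate 1 the groups still did not overlap, but Kdr no longer passed (0.51, edgeR adjusted p = 0.0695), and in flox brains it was called (0.84 ± 0.13, SE, edgeR adjusted p = 0.031). Flt1, the VEGFR1 decoy receptor, and Flt4, VEGFR3 of sprouting and lymphatic endothelium, rose by 0.58 ± 0.11 and 0.91 ± 0.16 on the log2 scale (SE, edgeR adjusted p = 0.0263 and 0.023). Both passed without replicate 1, at edgeR adjusted p = 0.00434 and 0.0151. Flt4 was 15.8, 10.5, 10.2 and 9.84 CPM in KO hypoxia libraries, against 5.53, 7.27 and 5.59 CPM in KO normoxia libraries, so replicate 1 was well above the other 3, which themselves exceeded all normoxia libraries. In all, 4 of 10 VEGF ligands and receptors rose, against 0.622% of all genes tested. The list median log2 difference was 0.52, against 0.0092 over all genes tested. The median was 0.38 without replicate 1 and 0.097 in flox brains.

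The promoter of Kdr is shown because it holds the HIF core letters and Kdr was called by hypoxia in both genotypes. The 300 bases span 250 before to 50 after the annotated start, on the minus strand (RefSeq, GRCm38.p6, chr5:75978406-75978705), and capitals mark ACGTG or GCGTG, searched on both strands.
Kdr: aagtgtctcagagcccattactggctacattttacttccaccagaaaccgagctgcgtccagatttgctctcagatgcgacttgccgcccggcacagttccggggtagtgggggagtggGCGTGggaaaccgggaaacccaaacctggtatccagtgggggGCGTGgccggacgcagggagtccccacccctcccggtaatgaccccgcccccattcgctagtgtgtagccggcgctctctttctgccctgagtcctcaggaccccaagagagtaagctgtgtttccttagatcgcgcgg
Matches of either core occurred in 54.1% of 135 promoters of called higher genes (105 genes of 140 matched by symbol), 52.5% of 61 promoters of called lower genes and 56.8% of 17462 promoters of tested genes. The share among hypoxia-raised genes was thus near that of tested genes. Vegfa had 0 matches at its first annotated start and 2 at the second, and Apln had 0. A match is a run of letters and no evidence of binding.

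**Figure D2:**
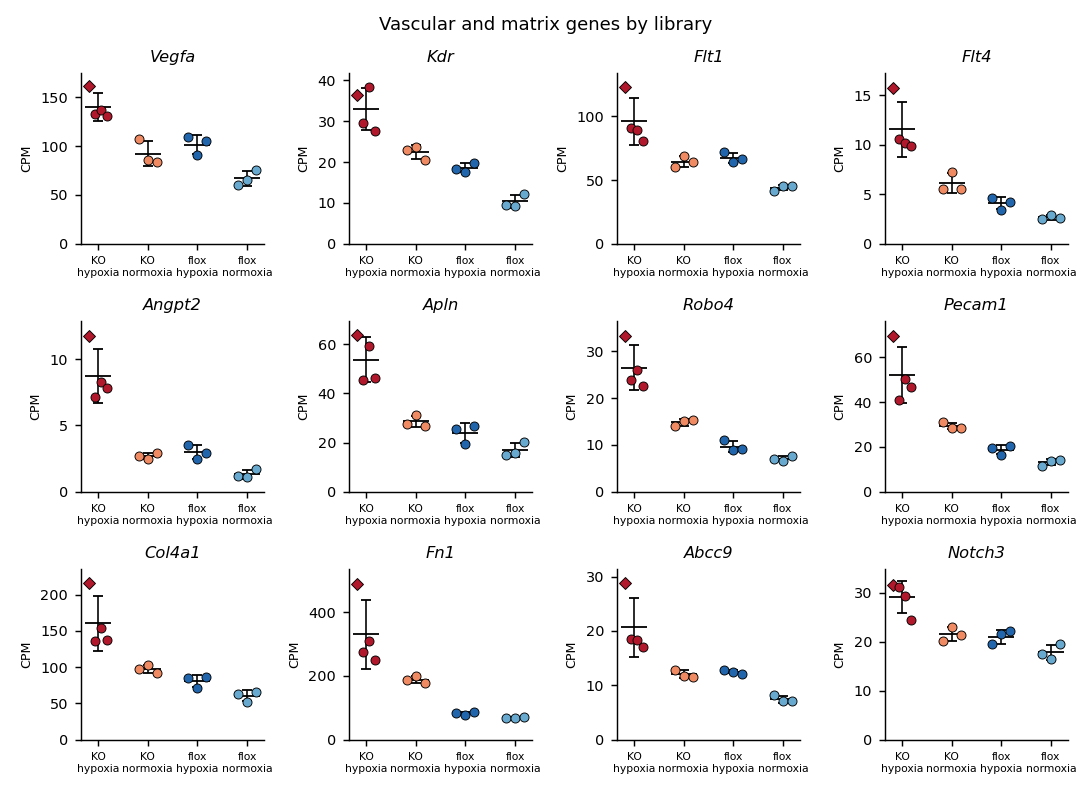
CPM of 12 vascular genes in each library, with KO hypoxia, KO normoxia, flox hypoxia and flox normoxia from left to right, and mean ± SD bars. The diamond is KO hypoxia replicate 1, and for each of the 12 genes all KO hypoxia points lie above all KO normoxia points.

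The plot of 12 vascular genes by library shows the oxygen step in KO brains beside the flox values. In flox brains the oxygen groups overlapped for Apln and Notch3. Several of the genes had a higher starting level in KO normoxia than in flox normoxia. Pecam1, for instance, averaged 29.3 ± 1.55 CPM (SD, n = 3) in KO normoxia and 13.2 ± 1.30 CPM (SD, n = 3) in flox normoxia brains.

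Many sprouting and tip-cell genes rose. Of 28 tested, 10 were higher and 0 lower, against 0.622% and 0.275% of all genes tested. The median log2 difference was 0.50, 0.39 without replicate 1 and 0.26 in flox brains. Without replicate 1, 8 of the 28 passed, against 0.395% of all genes called higher. Robo4, an endothelial guidance receptor that stabilises vessels, had 33.4, 23.9, 25.98 and 22.6 CPM in KO hypoxia libraries, against 14.02, 15.2 and 15.3 CPM in KO normoxia libraries. Its log2 difference was 0.84 ± 0.12 (SE, edgeR adjusted p = 0.0072) and 0.70 without replicate 1 (edgeR adjusted p = 0.00158). Esm1 and Aplnr, other tip-cell genes, were not called (0.33 ± 0.39 and 0.013 ± 0.27, SE, edgeR adjusted p = 0.759 and 0.989). Aplnr, the apelin receptor, was 1.46 ± 0.37 in flox brains, and its oxygen effect in KO was lower by an interaction of -1.45 ± 0.45 (SE, unadjusted p = 0.00563). In the angiopoietin and Tie list Angpt2 was the 1 call of 8, while Angpt1, the stabilising ligand, was 0.26 ± 0.13 (SE, edgeR adjusted p = 0.401).

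General endothelial genes rose too. Of 20 pan-endothelial markers 8 were higher and 0 lower, against 0.622% and 0.275% of all genes tested. The median was 0.58, and 6 passed without replicate 1, against 0.395% of all genes called higher. Summed over the list, expression was 732 to 1227 CPM in the KO hypoxia libraries and 551 to 605 CPM in the KO normoxia libraries, with replicate 1 the highest. In flox brains the sum was 340.3 to 383 CPM in the flox hypoxia libraries and 255 to 292 CPM in the flox normoxia libraries and the list median 0.41. In bulk tissue more endothelial cells and more RNA per endothelial cell cannot be told apart. Pecam1, which encodes the junction protein CD31, had 69.7, 41.1, 50.5 and 46.99 CPM in KO hypoxia libraries, against 31.1, 28.3 and 28.6 CPM in KO normoxia libraries. It rose by 0.83 ± 0.14 on the log2 scale (SE, edgeR adjusted p = 0.0154) and held without replicate 1 (0.66, edgeR adjusted p = 0.00434). Esam, a tight-junction adhesion molecule, and Eng, a TGF-beta co-receptor of proliferating endothelium, also rose and held (edgeR adjusted p = 0.0101 and 0.0435 without replicate 1). With the Y-linked term added to that fit, Esam passed and Eng did not (edgeR adjusted p = 0.0249 and 0.0869). Tek and Tie1, the TIE receptors, missed the threshold (0.41 ± 0.10 and 0.38 ± 0.14, SE, edgeR adjusted p = 0.0752 and 0.221).

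Of 22 blood-brain barrier genes 3 were higher, against 0.622% of all genes tested, and the list median was 0.11, or 0.063 without replicate 1 and 0.19 in flox brains. The 3 were Slc16a1, the lactate and ketone transporter MCT1, Pglyrp1, a peptidoglycan recognition gene found in brain endothelium, and Abcb1a, the P-glycoprotein efflux pump. Slc16a1 had 70.1, 65.5, 78.3 and 71.2 CPM in KO hypoxia libraries, against 53.7, 55.02 and 52.00 CPM in KO normoxia libraries. All hypoxia libraries were higher, with a log2 difference of 0.41 ± 0.078 (SE, edgeR adjusted p = 0.0288). Slc16a1 and Pglyrp1 passed without replicate 1 (edgeR adjusted p = 0.0438 and 0.0489), and Abcb1a did not (0.0669). With the Y-linked term added to that fit, Pglyrp1 did not pass and Abcb1a did (edgeR adjusted p = 0.103 and 0.0473). Cldn5, the main tight-junction claudin, overlapped between groups, with a log2 difference of 0.20 ± 0.12 (SE, edgeR adjusted p = 0.51) that was 0.061 without replicate 1. Slc2a1, the GLUT1 glucose transporter and a HIF target, was separated but not called (0.53 ± 0.14, SE, edgeR adjusted p = 0.0836).

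Pericyte genes rose in part and smooth-muscle genes were not called. Of 12 pericyte markers 3 were higher, against 0.622% of all genes tested. All 12 had positive log2 differences, as did 11812 of the 22507 genes tested. The list median was 0.44, 0.36 without replicate 1 and 0.25 in flox brains. Abcc9, a subunit of the pericyte ATP-sensitive potassium channel, had 28.8, 18.5, 18.4 and 17.1 CPM in KO hypoxia libraries, against 12.8, 11.7 and 11.6 CPM in KO normoxia libraries. Its log2 difference of 0.78 ± 0.14 (SE, edgeR adjusted p = 0.0242) was 0.58 without replicate 1 (edgeR adjusted p = 0.00232). Ndufa4l2, a HIF-induced mitochondrial gene that also marks pericytes, and Notch3, a mural Notch receptor, were called with all libraries (1.06 ± 0.21 and 0.44 ± 0.089, SE, edgeR adjusted p = 0.0308 and 0.0342). Neither passed without replicate 1 (edgeR adjusted p = 0.0574 and 0.0754). None of 10 smooth-muscle genes passed by edgeR (3 at an unadjusted p under 0.05, 3 by DESeq2), and Acta2, smooth-muscle actin, was 0.79 ± 0.19 (SE, edgeR adjusted p = 0.0612).

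Genes of the vascular basement membrane and matrix rose in the KO brain. Of 31 matrix genes 8 were higher and 0 lower, against 0.622% and 0.275% of all genes tested. The median was 0.39, and 7 passed without replicate 1, where the median was 0.24. In flox brains the median was -0.075 and 0 of 31 passed. Col4a1, a chain of basement-membrane collagen IV, had 216, 136, 154 and 137 CPM in KO hypoxia libraries, against 97.9, 102 and 91.9 CPM in KO normoxia libraries. It rose by 0.72 ± 0.13 (log2, SE, edgeR adjusted p = 0.0282) and held without replicate 1 (0.54, edgeR adjusted p = 0.0101). Fn1, the fibronectin gene, had 489, 274, 311 and 249 CPM in KO hypoxia libraries, against 185, 200.3 and 179 CPM in KO normoxia libraries. It rose by 0.81 ± 0.16 (log2, SE, edgeR adjusted p = 0.0306), or 0.56 without replicate 1 (edgeR adjusted p = 0.00156).

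Sparc, a collagen-binding matrix protein, rose by 0.61 ± 0.093 on the log2 scale (SE, edgeR adjusted p = 0.0105), with 454, 371, 432 and 486 CPM in KO hypoxia libraries, against 306, 254 and 295 CPM in KO normoxia libraries. Its groups were well apart and its value without replicate 1 was 0.59 (edgeR adjusted p = 0.0115). Lama5 and Nid2, a laminin chain and a nidogen linker of basement membranes, rose by 0.63 ± 0.11 and 0.73 ± 0.12 (log2, SE, edgeR adjusted p = 0.023 and 0.0154), and both held (edgeR adjusted p = 0.0101 and 0.02). Fibrillar collagen genes of fibroblasts, Col1a1 and Col1a2, were not called (0.44 ± 0.24 and 0.31 ± 0.18, SE, edgeR adjusted p = 0.429 and 0.481). The 10 fibroblast markers summed to 536 to 864 CPM in the KO hypoxia libraries and 548 to 752 CPM in the KO normoxia libraries, overlapping ranges, and 0 of 10 were called by edgeR (2 at an unadjusted p under 0.05, 0 by DESeq2). The oxygen effect on Sparc was larger in KO than in flox brains by 0.42 ± 0.13 (SE, unadjusted p = 0.00693). With replicate 1 included, 15 of the 31 matrix genes had an unadjusted interaction p under 0.05, against 7.26% of all genes. Without it the difference between genotypes went from 0.55 to 0.30 for Fn1 and from 0.41 to 0.27 for Lama5. For Col4a1 it went from 0.30 to 0.12 and for Nid2 from 0.14 to 0.13. No interaction passed adjustment.

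Within the TGF-beta and BMP list 3 of 20 genes were higher, against 0.622% of all genes tested. The 3 included Eng and Tgfb1, the ligand. Tgfb1 was 0.57 ± 0.11 (SE, edgeR adjusted p = 0.03) and did not pass without replicate 1 (edgeR adjusted p = 0.0629). Of 16 coagulation and fibrinolysis genes 2 were higher, against 0.622% of all genes tested. They included Anxa2, the plasminogen-binding annexin A2, and both passed without replicate 1. With the Y-linked term added to that fit, Anxa2 did not pass (edgeR adjusted p = 0.083).

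Of 29 classical HIF targets tested, 2 were higher, Vegfa and Ndufa4l2, against 0.622% of all genes tested, and the median was 0.17, with 13 of the 29 separated in the higher direction against 6.59% of all genes. Bnip3, a mitophagy receptor, was separated but not called (0.19 ± 0.055, SE, edgeR adjusted p = 0.118). Adm, the adrenomedullin gene, had 5.90, 1.87, 2.89 and 2.49 CPM in KO hypoxia libraries, against 3.98, 3.11 and 3.12 CPM in KO normoxia libraries, overlapping groups in which replicate 1 was the highest. Without replicate 1 all KO hypoxia libraries were below the KO normoxia libraries, but Adm was not called (-0.49 ± 0.34, SE, edgeR adjusted p = 0.625). None of 16 glycolysis genes passed by edgeR (6 at an unadjusted p under 0.05, 2 by DESeq2), the list median was 0.047, and Gpi1, glucose-6-phosphate isomerase, was 0.18 ± 0.049 (SE, edgeR adjusted p = 0.0861). None of 10 HIF factors and oxygen sensors passed by edgeR (3 at an unadjusted p under 0.05, 0 by DESeq2). Hif1a was 0.10 ± 0.053 and Epas1, encoding HIF-2alpha, 0.033 ± 0.062 (SE, edgeR adjusted p = 0.395 and 0.862).

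The transcription factors KLF2 and KLF4, raised in CCM lesions, were not called under hypoxia. Of 14 genes of their axis 0 rose and 1 fell by edgeR, 3 rose and 1 fell by DESeq2, and 7 had an unadjusted edgeR p under 0.05 in either direction, with a median of 0.32. Klf2 had 60.7, 34.2, 48.7 and 49.7 CPM in KO hypoxia libraries, against 35.3, 26.01 and 21.7 CPM in KO normoxia libraries. Replicate 1 was the highest, the groups overlapped, and the log2 difference was 0.81 ± 0.22 (SE, edgeR adjusted p = 0.094). Klf4 was 0.46 ± 0.22 (SE, edgeR adjusted p = 0.363), and Nos3, the endothelial nitric oxide synthase induced by KLF2, was 0.47 ± 0.11 (SE, edgeR adjusted p = 0.0625). Mef2c, a transcription factor of the same MEKK3 pathway in endothelium that neurons also express, fell, with 586, 569, 592 and 547 CPM in KO hypoxia libraries, against 629, 731 and 668 CPM in KO normoxia libraries. Its log2 difference was -0.24 ± 0.047 (SE, edgeR adjusted p = 0.0308), -0.25 without replicate 1 (edgeR adjusted p = 0.0468) and short of the threshold with a replicate block (edgeR adjusted p = 0.0627). Without replicate 1 and with the Y-linked term, Mef2c also missed the threshold (edgeR adjusted p = 0.0932). In the Notch list 1 of 15 rose, Notch3, and 1 fell, Hes5, a Notch target of neural progenitors (-0.63 ± 0.14, SE, edgeR adjusted p = 0.0488). Hes5 did not pass without replicate 1 or with the block (edgeR adjusted p = 0.115 and 0.142), and Notch2 passed with the block alone (edgeR adjusted p = 0.0356).

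Cebpd and A2m rose in the KO brain. Cebpd, a transcription factor induced by cytokines and glucocorticoids, had 27.5, 14.02, 13.9 and 15.5 CPM in KO hypoxia libraries, against 6.80, 6.46 and 6.99 CPM in KO normoxia libraries. On the log2 scale it rose by 1.40 ± 0.23 (SE, edgeR adjusted p = 0.0154), 1.10 without replicate 1 (edgeR adjusted p = 0.0035) and 0.24 ± 0.24 in flox brains (SE, edgeR adjusted p = 0.949). A2m, the protease inhibitor alpha-2-macroglobulin, had 27.8, 15.3, 15.7 and 16.6 CPM in KO hypoxia libraries, against 7.50, 5.37 and 6.55 CPM in KO normoxia libraries. It rose by 1.55 ± 0.19 (log2, SE, edgeR adjusted p = 0.00395), or 1.30 without replicate 1 (edgeR adjusted p = 0.000526). The KO hypoxia libraries 2, 3 and 4 lay close together for both genes, with replicate 1 above them and all normoxia libraries below.

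Capg, an actin-capping protein of macrophages and endothelium, and Ctla2a, a cysteine protease inhibitor, rose by 1.25 ± 0.19 and 1.70 ± 0.28 (log2, SE, edgeR adjusted p = 0.0105 and 0.0154). Acer2, an alkaline ceramidase, rose by 1.13 ± 0.23 (log2, SE, edgeR adjusted p = 0.036). All 3 held without replicate 1, at edgeR adjusted p = 0.00124, 0.00232 and 0.0148. Their differences between the KO and flox oxygen effects were 0.97 ± 0.30, 1.35 ± 0.42 and 0.46 ± 0.34 (SE, unadjusted p = 0.00587, 0.00564 and 0.195). Without replicate 1 these differences were smaller, at 0.70, 0.95 and 0.12.

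Among 28 cytokine, chemokine and adhesion genes tested, 4 were higher and 0 lower, against 0.622% and 0.275% of all genes tested. Without replicate 1, 1 passed. The list median was 0.51, 0.34 without replicate 1 and -0.035 in flox brains. The gene that held was Nfkbia, the NF-kB inhibitor that NF-kB itself induces, with 46.2, 30.7, 30.5 and 33.5 CPM in KO hypoxia libraries, against 20.5, 17.6 and 19.5 CPM in KO normoxia libraries. All KO hypoxia libraries were higher, and its log2 difference was 0.88 ± 0.17 (SE, edgeR adjusted p = 0.029), 0.72 without replicate 1 (edgeR adjusted p = 0.0436) and 0.21 ± 0.18 in flox brains (SE). Osmr, the receptor of the glial cytokine oncostatin M, Csf1, the growth factor of microglia, and Cxcl12, an endothelial and stromal chemokine, were called with all libraries (0.54 ± 0.12, 0.37 ± 0.079 and 0.42 ± 0.085, SE, edgeR adjusted p = 0.0439, 0.0409 and 0.0343). Without replicate 1 their edgeR adjusted p were 0.0654, 0.0934 and 0.0647. Cxcl12 was also called in flox brains, at 0.61 ± 0.091 (SE, edgeR adjusted p = 0.031). With the replicate block Osmr and Csf1 missed the threshold (edgeR adjusted p = 0.0727 and 0.102) and 2 genes of the list passed. The cytokines Il1a and Il1b were low and not called, with Il1b at 0.306 to 0.714 CPM in KO hypoxia and 0.272 to 0.442 CPM in KO normoxia libraries. Il6 and Tnf were below the expression filter.

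The Nfkbia promoter is shown because it holds an NF-kB pattern close to the start (RefSeq, GRCm38.p6, minus strand, chr12:55492598-55492897). Capitals mark the pattern of GGG, any 2 bases and TTTCC, found here on the opposite strand.
Nfkbia: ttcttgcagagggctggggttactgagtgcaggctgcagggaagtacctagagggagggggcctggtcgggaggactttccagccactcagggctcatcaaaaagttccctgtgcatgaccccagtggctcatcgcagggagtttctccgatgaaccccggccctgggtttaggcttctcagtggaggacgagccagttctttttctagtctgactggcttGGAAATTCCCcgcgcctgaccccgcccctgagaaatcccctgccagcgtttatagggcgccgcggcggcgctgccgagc
The pattern, searched on both strands, occurred in 2.96% of promoters of called higher genes (4 of 135), 1.64% of those of called lower genes and 1.60% of promoters of tested genes.

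**Figure D3:**
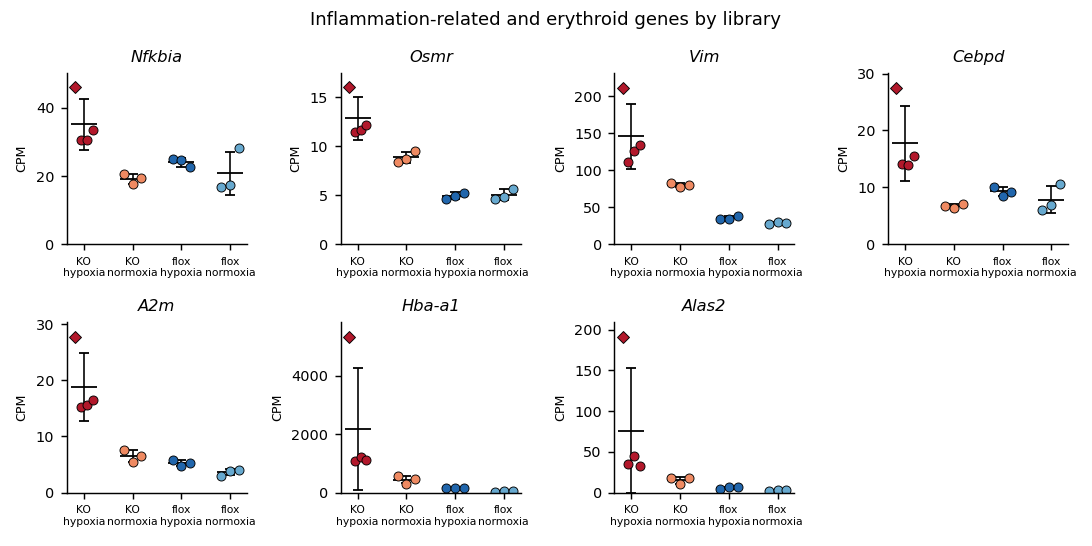
CPM in each library for Nfkbia, Osmr, Vim, Cebpd, A2m and 2 red-cell genes, groups from left to right KO hypoxia, KO normoxia, flox hypoxia and flox normoxia, with mean ± SD bars. The diamond, KO hypoxia replicate 1, is the highest point in every panel, and the other KO hypoxia points remain above the KO normoxia points.

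In the plot of these genes by library the distance of the diamond from the circles shows how much of each mean came from 1 library. Vim, for the intermediate filament vimentin of reactive astrocytes and endothelium, had 211, 112, 126 and 134 CPM in KO hypoxia libraries, against 83.3, 78.03 and 80.4 CPM in KO normoxia libraries. It rose by 0.86 ± 0.15 (log2, SE, edgeR adjusted p = 0.0209) and by 0.62 without replicate 1 (edgeR adjusted p = 0.000526).

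Of 30 reactive astrocyte genes 2 were higher by the all-library test, Vim and Osmr (0.622% of all genes tested were higher), with a median of 0.44, 0.22 without replicate 1 and -0.044 in flox brains. Gfap, the astrocyte filament gene, had 918, 1272, 1543 and 1732 CPM in KO hypoxia libraries, against 1201, 1150 and 1214 CPM in KO normoxia libraries. Replicate 1 was the lowest of the KO hypoxia libraries there, the groups overlapped, and the log2 difference was 0.20 ± 0.14 (SE, edgeR adjusted p = 0.562). Without replicate 1 all KO hypoxia libraries were above the KO normoxia libraries. The log2 difference was then 0.35 ± 0.083 (SE, edgeR adjusted p = 0.0815), short of the threshold. None of 12 homeostatic astrocyte genes passed by edgeR (4 at an unadjusted p under 0.05, 4 by DESeq2), although Aldh1l1 passed with the replicate block (-0.30 ± 0.077 by the unblocked fit, SE, blocked edgeR adjusted p = 0.0256).

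Of 16 homeostatic microglia genes 2 were higher, against 0.622% of all genes tested, among them Olfml3, a secreted protein of microglia. All 16 had positive log2 differences, as did 11812 of the 22507 genes tested, and the list median was 0.20. Olfml3 was 0.52 ± 0.11 (SE, edgeR adjusted p = 0.0335) and passed neither without replicate 1 (edgeR adjusted p = 0.0679) nor with the block (edgeR adjusted p = 0.0574). Cx3cr1, the microglial fractalkine receptor, was 0.20 ± 0.085 and its neuronal ligand gene Cx3cl1 -0.19 ± 0.065 (SE, edgeR adjusted p = 0.28 and 0.183). In the disease-associated microglia list Csf1 was the 1 call of 22 and the median was 0.36. The microglial list summed to 578 to 769.8 CPM in the KO hypoxia libraries and 533 to 559.6 CPM in the KO normoxia libraries.

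Complement, antigen presentation and interferon genes had no call. Their medians were 0.51 over 15, 0.37 over 15 and 0.27 over 22 genes, and 0.29, 0.19 and 0.18 without replicate 1. C1qa, a complement subunit made by microglia, was 0.51 ± 0.13 (SE, edgeR adjusted p = 0.0819). By edgeR 8, 5 and 5 of them had an unadjusted p under 0.05, and DESeq2 called 1 complement gene, 0 antigen presentation genes and 0 interferon genes.

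Blood-borne leukocyte markers were at low level and highest in replicate 1. The 15 neutrophil and monocyte markers summed to 16.3 to 38.6 CPM in the KO hypoxia libraries and 12.8 to 15.1 CPM in the KO normoxia libraries, and 9 of them were tested, of which 0 passed by edgeR (3 at an unadjusted p under 0.05, 1 by DESeq2). Replicate 1 held 38.6 CPM and the other KO hypoxia libraries 16.3 to 19.8. S100a9, a calcium-binding protein of neutrophils, had 5.19, 0.775, 0.581 and 0.919 CPM in KO hypoxia libraries, against 0.106, 0.242 and 0.377 CPM in KO normoxia libraries (log2 difference 2.94 ± 0.77, SE, edgeR adjusted p = 0.0819), and Ly6g, the defining surface marker, had 6 counts over all KO libraries. The 15 lymphocyte markers summed to 27.1 to 36.1 CPM in the KO hypoxia libraries and 24.8 to 29.8 CPM in the KO normoxia libraries. Border-associated macrophage genes summed to 43.7 to 69.7 CPM in the KO hypoxia libraries and 37.1 to 44.05 CPM in the KO normoxia libraries, with 0 of 10 called by edgeR (1 at an unadjusted p under 0.05, 1 by DESeq2). What these cells contributed to the inflammatory genes was not tested.

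Red-cell transcripts rose, with the largest median of the lists described. Hemoglobin genes made up 1.72%, 0.348%, 0.419% and 0.345% of counts in KO hypoxia replicates 1 to 4, against 0.168%, 0.0949% and 0.135% in KO normoxia replicates 1 to 3. The shares did not overlap, at 0.707% ± 0.674 in KO hypoxia and 0.133% ± 0.037 in KO normoxia (SD, n = 4 and 3, difference 0.574 percentage points, two-sided exact permutation p = 0.0571, the smallest this design allows). Without replicate 1 the KO hypoxia share was 0.371% ± 0.0415 (SD, n = 3, difference 0.238 points, exact permutation p = 0.1, again the smallest possible). Of 7 erythroid genes tested 4 were higher, Hba-a1, Hba-a2, Hbb-bs and Alas2, against 0.622% of all genes tested. All 4 passed without replicate 1. Hba-a1, an alpha-globin gene with the near-identical copy Hba-a2, had 5305, 1092, 1228 and 1109 CPM in KO hypoxia libraries, against 549, 306 and 449 CPM in KO normoxia libraries. Its log2 difference was 2.33 ± 0.47 (SE, edgeR adjusted p = 0.0333), 1.40 without replicate 1 (edgeR adjusted p = 0.00156) and 1.71 ± 0.49 in flox brains (SE, edgeR adjusted p = 0.446).

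Reads of Hba-a1 and Hba-a2 may be split between the copies by the counting, and both rose. Alas2, the erythroid enzyme that starts heme synthesis, had 191, 35.7, 45.04 and 32.2 CPM in KO hypoxia libraries, against 17.98, 10.3 and 17.3 CPM in KO normoxia libraries. It rose by 2.33 ± 0.52 (log2, SE, edgeR adjusted p = 0.0469) and by 1.32 without replicate 1 (edgeR adjusted p = 0.0089). Slc4a1, the red-cell anion exchanger, passed with the replicate block alone (edgeR adjusted p = 0.097 without and 0.0256 with it). None of 13 iron and heme handling genes passed by edgeR (7 at an unadjusted p under 0.05, 2 by DESeq2), and Hmox1, heme oxygenase 1, which degrades heme, had 32.9, 7.05, 10.1 and 8.94 CPM in KO hypoxia libraries, against 7.03, 5.32 and 6.15 CPM in KO normoxia libraries, highest in replicate 1 (1.27 ± 0.40, SE, edgeR adjusted p = 0.143).

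Clock genes were called in both directions. The molecular clock runs on BMAL1 (Arntl) with CLOCK or NPAS2, which bind the E-box CACGTG and drive the PER, REV-ERB and PAR bZIP genes. Of 15 clock genes tested 5 were higher and 2 lower, against 0.622% and 0.275% of all genes tested. Without replicate 1, 3 and 0 passed, against 0.395% and 0.0628% of all genes. Dbp, a PAR bZIP output factor, had 77.8, 83.2, 80.2 and 80.3 CPM in KO hypoxia libraries, against 61.04, 59.04 and 59.6 CPM in KO normoxia libraries. The log2 difference was 0.42 ± 0.052 (SE, edgeR adjusted p = 0.00387) and 0.44 without replicate 1 (edgeR adjusted p = 0.00158), and for this gene replicate 1 was the lowest of the 4. Ciart, a clock repressor also called Chrono, had 21.03, 26.3, 20.8 and 22.4 CPM in KO hypoxia libraries, against 12.4, 10.3 and 13.5 CPM in KO normoxia libraries. No library crossed between groups, with a log2 difference of 0.91 ± 0.14 (SE, edgeR adjusted p = 0.013) and 0.94 without replicate 1 (edgeR adjusted p = 0.0101).

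Nr1d2, the REV-ERB-beta repressor, was the other gene that held, at 0.26 ± 0.043 (SE, edgeR adjusted p = 0.018) and edgeR adjusted p = 0.0117 without replicate 1. Per3 and Tef, a period gene and a second PAR bZIP factor, were 0.30 ± 0.060 and 0.17 ± 0.036 (SE, edgeR adjusted p = 0.0324 and 0.0346) and did not pass without replicate 1. Arntl moved the other way, with 21.3, 22.8, 24.3 and 25.1 CPM in KO hypoxia libraries, against 33.2, 32.1 and 28.1 CPM in KO normoxia libraries. Its log2 difference was -0.42 ± 0.082 (SE, edgeR adjusted p = 0.0308) and -0.37 without replicate 1 (edgeR adjusted p = 0.066). Npas2, the partner of BMAL1 in forebrain, was -0.28 ± 0.059 (SE, edgeR adjusted p = 0.0409) and likewise missed the threshold without replicate 1 (edgeR adjusted p = 0.0833). Tef, Npas2 and Bhlhe41, the clock repressor DEC2 (0.35 ± 0.059, SE, edgeR adjusted p = 0.0183), were named after their values were seen. With the replicate block Tef and Npas2 missed the threshold (edgeR adjusted p = 0.0744 and 0.0836).

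In flox brains the clock list had 0 calls. Dbp was 85.2, 91.6 and 99.4 CPM in flox hypoxia libraries, against 74.5, 80.97 and 72.3 CPM in flox normoxia libraries, and Arntl was 25.6, 23.1 and 24.6 CPM in flox hypoxia libraries, against 29.3, 23.5 and 24.9 CPM in flox normoxia libraries. The KO normoxia libraries were the lowest of the 4 groups for Dbp, Ciart, Nr1d2 and Per3 and the highest on average for Arntl and Npas2. For Npas2 the oxygen effects of KO and flox differed by -0.32 ± 0.087 (SE, unadjusted p = 0.0023) and for Dbp by 0.15 ± 0.075 (SE, unadjusted p = 0.0713). The labels give no hour of collection.

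**Figure D4:**
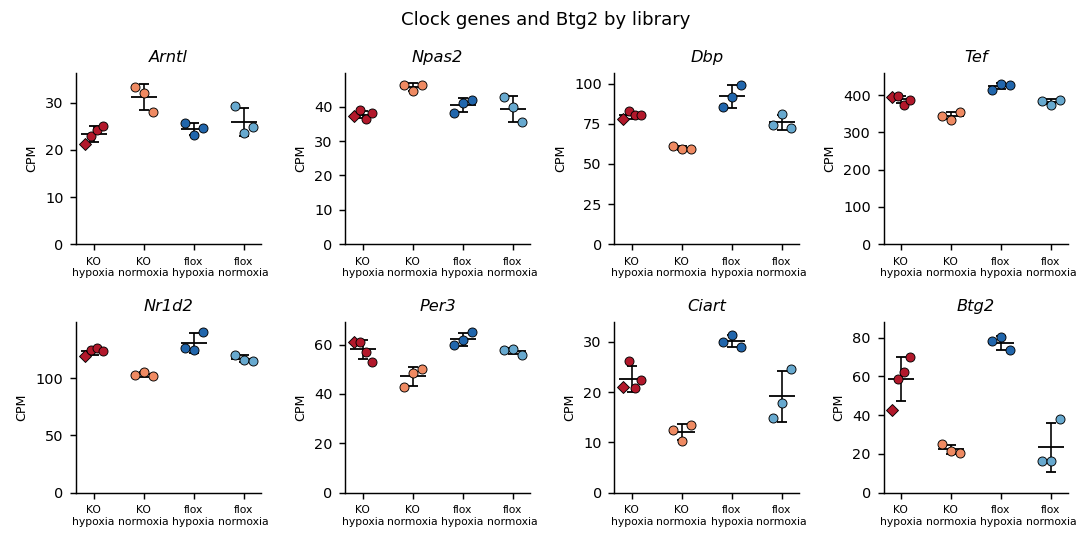
CPM in each library for 7 clock genes and the early-response gene Btg2, with KO hypoxia, KO normoxia, flox hypoxia and flox normoxia from left to right and mean ± SD bars. Arntl and Npas2 are lower and the other genes higher in all KO hypoxia libraries than in the KO normoxia libraries, and the diamond, KO hypoxia replicate 1, is the highest KO hypoxia point for Per3 and for no other gene drawn.

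The plot of clock genes by library shows the opposite steps of Arntl and Npas2 and of the other clock genes drawn. Promoters of Ciart and Tef follow because both hold the E-box and both rose (RefSeq, GRCm38.p6). Ciart is on the minus strand at chr3:95882179-95882478 and the first start of Tef on the plus strand at chr15:81802423-81802722, and capitals mark CACGTG.
Ciart: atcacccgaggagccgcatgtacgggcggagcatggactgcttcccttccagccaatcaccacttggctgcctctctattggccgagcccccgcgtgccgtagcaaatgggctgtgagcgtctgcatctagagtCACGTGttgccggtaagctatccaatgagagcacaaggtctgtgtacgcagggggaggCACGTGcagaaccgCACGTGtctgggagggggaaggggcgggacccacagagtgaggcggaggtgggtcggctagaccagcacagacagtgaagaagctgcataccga
Tef: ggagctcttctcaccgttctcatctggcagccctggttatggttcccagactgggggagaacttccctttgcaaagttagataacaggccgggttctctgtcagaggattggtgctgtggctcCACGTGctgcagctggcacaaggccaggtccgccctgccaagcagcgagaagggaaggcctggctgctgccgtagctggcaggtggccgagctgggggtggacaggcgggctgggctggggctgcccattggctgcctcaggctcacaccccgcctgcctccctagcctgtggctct
Ciart held 3 E-boxes, the second start of Tef held 1 as well, and Bhlhe41 held 1. None was found at the starts of Dbp, Nr1d2, Per3 or Npas2. CACGTG reads the same on both strands and contains the HIF core ACGTG, so these matches count in both searches. It occurred in 8.89% of promoters of called higher genes, 3.28% of those of called lower genes and 8.95% of promoters of tested genes.

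Immediate early genes varied between libraries. Of 20 immediate early genes 2 were higher, against 0.622% of all genes tested. They were Btg2, an antiproliferative factor induced by growth signals and neuronal activity, and Dusp1, a MAP kinase phosphatase. Btg2 had 42.8, 58.8, 62.4 and 70.1 CPM in KO hypoxia libraries, against 24.9, 21.6 and 20.6 CPM in KO normoxia libraries. Replicate 1 was the lowest of the KO hypoxia libraries, yet all 4 were above normoxia (log2 difference 1.39 ± 0.24, SE, edgeR adjusted p = 0.0199). It was 1.51 without replicate 1 (edgeR adjusted p = 0.0089) and was also called in flox brains (1.71 ± 0.25, SE, edgeR adjusted p = 0.031). Dusp1, 1.06 ± 0.24 (SE, edgeR adjusted p = 0.0491), passed neither without replicate 1 nor with the block (edgeR adjusted p = 0.0632 and 0.0883). Fos had 41.8, 92.7, 87.1 and 85.7 CPM in KO hypoxia libraries, against 41.2, 24.8 and 29.2 CPM in KO normoxia libraries, separated but widely spread (1.28 ± 0.45, SE, edgeR adjusted p = 0.193). The list medians were 0.62 in KO and 0.68 in flox brains. Flox normoxia replicate 3, the library with Xist, held 3346 CPM summed over the list, against 1478 and 1291 CPM in the other flox normoxia libraries. Dusp1 was also the 1 call among 15 glucocorticoid-response genes, where Fkbp5, a sensitive target of the glucocorticoid receptor, was -0.25 ± 0.13 (SE, edgeR adjusted p = 0.388).

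The genes that fell did so by small amounts. The 62 lower calls had 57 members under 1.5-fold, and 14 of them held without replicate 1. Htra1, a secreted serine protease of astrocytes and vessels, had 88.98, 85.7, 84.5 and 87.6 CPM in KO hypoxia libraries, against 121, 116 and 105 CPM in KO normoxia libraries. The groups did not overlap, and the log2 difference of -0.40 ± 0.061 (SE, edgeR adjusted p = 0.0113) was -0.41 without replicate 1 (edgeR adjusted p = 0.0101). Reep6, an endoplasmic reticulum shaping protein, and Sdk2, a synaptic adhesion molecule, also fell and held (-0.45 ± 0.068 and -0.41 ± 0.074, SE, edgeR adjusted p = 0.0105 and 0.0266, and 0.0101 and 0.0191 without replicate 1).

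Inhba, the activin A subunit induced by neuronal activity, had 5.90, 7.57, 7.82 and 4.46 CPM in KO hypoxia libraries, against 9.59, 13.2 and 10.4 CPM in KO normoxia libraries. It had the largest fall among the genes named by size, and its KO hypoxia values varied widely (-0.78 ± 0.15, SE, edgeR adjusted p = 0.031, 0.066 without replicate 1). Nptx2, a synaptic pentraxin also regulated by activity, fell by 0.61 on the log2 scale in KO (edgeR adjusted p = 0.0294), with -0.60 ± 0.13 in flox brains (SE, edgeR adjusted p = 0.177). Hapln4, a link protein of perineuronal nets, had -0.40 ± 0.078 in KO and -0.0018 ± 0.084 in flox brains (log2, SE), an interaction of -0.40 ± 0.11 (SE, unadjusted p = 0.00322). Lipg, an endothelial lipase, Tnnc1, a troponin C, Ccnf, cyclin F, and Hsd11b1, the enzyme that regenerates active glucocorticoid, fell by 0.64, 0.64, 0.50 and 0.38 (log2). None of Inhba, Nptx2, Hapln4, Lipg, Tnnc1, Ccnf and Hsd11b1 passed without replicate 1, with edgeR adjusted p between 0.0574 and 0.106, and Ccnf did not pass with the block (edgeR adjusted p = 0.0733).

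Most neuronal genes had small negative differences that did not pass. Of 20 synaptic genes 19 had negative log2 differences, whereas 11812 of the 22507 genes tested had positive ones. The list median was -0.11, and 1 gene fell, Syn1, the synaptic vesicle protein synapsin. Syn1 had 716, 688, 728 and 679 CPM in KO hypoxia libraries, against 788, 836 and 786 CPM in KO normoxia libraries. The fall, -0.19 ± 0.038 on the log2 scale (SE, edgeR adjusted p = 0.0308), was -0.20 without replicate 1 (edgeR adjusted p = 0.0489) and was not called with the block (edgeR adjusted p = 0.0834). Nefl, the light neurofilament, was the 1 call of 10 neuron markers (-0.21 ± 0.047, SE, edgeR adjusted p = 0.0469), and was not called without replicate 1 or with the block (edgeR adjusted p = 0.0996 and 0.0513). The neuron markers summed to 7247 to 7413 CPM in the KO hypoxia libraries and 7650 to 7902 CPM in the KO normoxia libraries, and in flox brains to 7731 to 7896 CPM in the flox hypoxia libraries and 7434 to 7695 CPM in the flox normoxia libraries. None of 13 GABAergic, 18 oxidative phosphorylation and 16 myelin genes passed by edgeR, although 4, 5 and 4 had an unadjusted p under 0.05 and DESeq2 called 1, 0 and 1.

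Cholesterol synthesis genes had 1 call of 20, Srebf2, the transcription factor that drives the pathway. The list median was -0.13 and 10 of 20 genes were separated in the lower direction, against 6.04% of all genes. Srebf2 was -0.18 ± 0.039 (SE, edgeR adjusted p = 0.0431) and did not pass without replicate 1 or with the block (edgeR adjusted p = 0.105 and 0.0627). Hmgcs1, an early pathway enzyme, had 201, 221, 226 and 224 CPM in KO hypoxia libraries, against 262, 254 and 252 CPM in KO normoxia libraries, separated but not called (-0.23 ± 0.065, SE, edgeR adjusted p = 0.105).

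The same oxygen contrast in flox brains had 5 genes higher (0.0222% of 22507) and 0 lower by edgeR. The number at an unadjusted p under 0.05 was 1497, and DESeq2 called 67. The 140 genes called higher in KO had a median log2 difference of 0.24 in flox, and 123 had the same sign. For the 62 called lower the median in flox was -0.08 and 54 had the same sign. The test of the difference between the oxygen effects of the genotypes passed for 0 genes by edgeR (1635, or 7.26%, had an unadjusted p under 0.05), 5 by DESeq2 and 2 by limma. Of the 140 higher and 62 lower calls 70 and 36 had an unadjusted interaction p under 0.05. They were chosen by 1 of the 2 effects that enter this test, so that share is a description. A larger response in KO than in flox was therefore not established for any single gene by edgeR, and the higher number of calls in KO stands beside 7 libraries against 6.

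**Figure D5:**
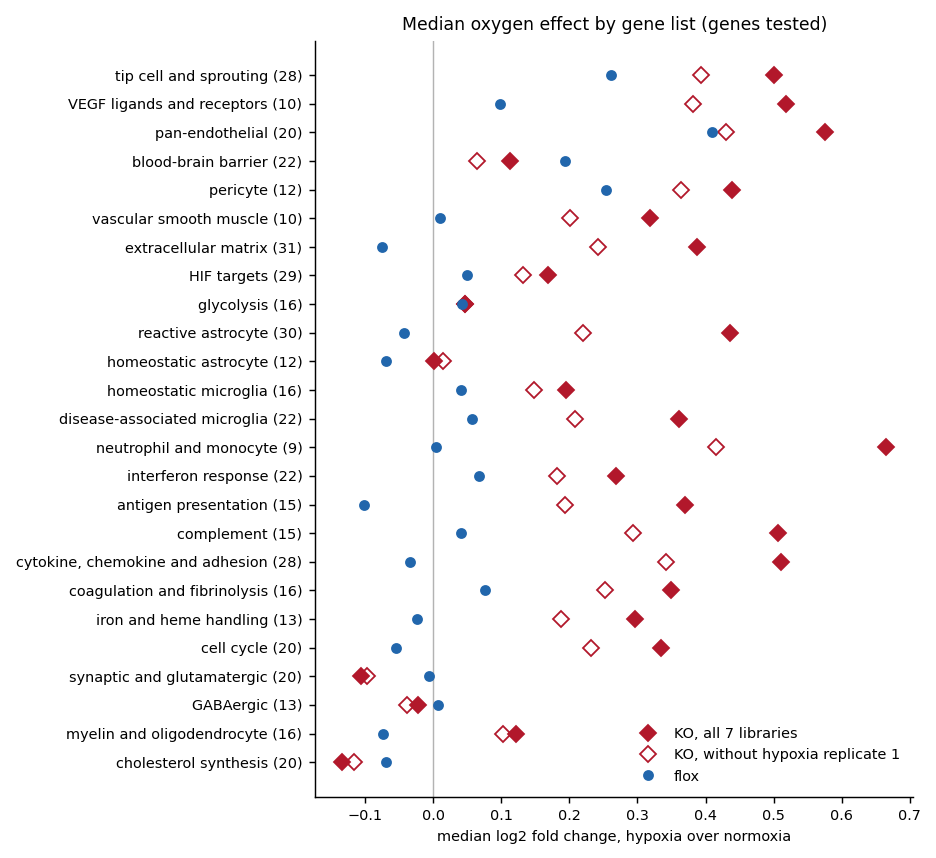
Median log2 difference of hypoxia over normoxia in each gene list (number of genes tested in brackets). Filled diamonds are KO brains with all 7 libraries, open diamonds KO brains without hypoxia replicate 1 and circles flox brains. Endothelial, matrix and inflammatory lists lie to the right of 0 in KO with and without replicate 1, and the synaptic and GABAergic lists to the left.

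The plot of list medians puts the lists side by side. The vessel lists varied. With replicate 1 left out, the medians were 0.43 in KO and 0.41 in flox brains for pan-endothelial genes, 0.36 in KO and 0.25 in flox for pericyte genes, and 0.39 in KO and 0.26 in flox for sprouting genes. They were 0.38 in KO and 0.097 in flox for VEGF ligands and receptors, 0.27 in KO and 0.12 in flox for angiopoietin and Tie genes, 0.20 in KO and 0.0100 in flox for smooth muscle genes, and 0.063 in KO and 0.19 in flox for barrier genes. For matrix (0.24 and -0.075), reactive astrocyte (0.22 and -0.044) and cytokine genes (0.34 and -0.035) the KO median was positive and the flox median slightly below 0. These medians carry no test of their own.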

How the data were processed

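Brain RNA of 13 mice was sequenced after a stranded mRNA preparation from 50 ng of total RNA with an integrity number above 8, per the labels' protocols and the design text. The submitters' processing notes name HISAT2, edgeR and GRCm39 without roles or versions. For annotation and strand setting, nothing is given in the sources used here, so overlapping antisense genes cannot be told apart. The authors deposited raw counts per gene (55416 identifiers, 52083 with a symbol) and RPKM values. RPKM equalled counts divided by column total and gene length, with a relative deviation of at most 9.84e-15 over 35248 genes, and the deposited RPKM entered alternatives only. Identifiers without a symbol held at most 0.822% of a library's counts. Every per-sample column was mapped to a sample by its name.

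Counts were fitted with edgeR 4.0.16 in R 4.3.3 (quasi-likelihood F-test, TMM, filterByExpr, 22507 genes), with the 4 groups of all 13 libraries in 1 fit that shares the estimate of spread. P-values were adjusted by Benjamini-Hochberg over all genes tested, and SE is the log2 difference divided by the root of F. The hemoglobin share was compared by an exact two-sided permutation test. Alternatives were RLE or no composition scaling, other filters, DESeq2 1.42.0, limma 3.58.1 on log2 RPKM with a pseudocount of 1 or 0.1, a replicate block, the 7 KO libraries alone, a test beyond 1.5-fold, a term for or restriction on Y-linked transcripts, and each library left out. Plots used Python 3.11.15 and matplotlib 3.10.9. The script was tested on simulated counts.

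Replicate numbers are in the labels. Deviations of same-numbered KO hypoxia and KO normoxia libraries correlated at 0.148, 0.278 and 0.371 for replicates 1, 2 and 3, and KO hypoxia replicate 4 had no partner. Other pairs reached similar values, 0.258 for KO hypoxia replicate 4 with KO normoxia replicate 3, which both carry Xist as does KO hypoxia replicate 3, and 0.136 for KO hypoxia replicate 1 with KO normoxia replicate 2. The block was used because each same-numbered KO pair exceeded 0.1, a level that the other pairs named here also passed. The correlations therefore do not single out same-numbered libraries. The block ran over all 13 libraries, so KO and flox libraries of the same number shared a term. Replicate 4 occurred in KO hypoxia alone, so its term absorbed that library. Blocked KO contrasts thus compare KO hypoxia replicates 1 to 3 with the KO normoxia libraries. No 2 libraries agreed within counting noise (chi-square per degree of freedom at least 10.5 within KO groups).

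Members, gene lists and tests were chosen with earlier results of these data known, as were the promoter motifs and the fit combining the Y-linked term with the loss of KO hypoxia replicate 1. Named genes were Pdcd10 and Slco1c1, the 12 largest rises and 12 largest falls among called genes with mean log2 CPM of at least 2 and separated groups, without predicted or sex-linked genes; up to 5 called members of each list by p and its first 2 uncalled members; and a short core set. Other names are marked where they occur. Some called genes that the rule gives are not reported here.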

Additional observations from a re-analysis of the deposited data

Results flagged for a closer look

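In 12 of the 60 called genes named by rule and reported here, 1 of the 4 KO hypoxia libraries lay far from the other 3 by Dixon's test, and the hemoglobin share was flagged in the same way. Chance flags about 1 in 20 groups. KO hypoxia replicate 1 was the distant library in all flags but 1.

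The red-cell values were 5305 CPM of Hba-a1, 4387 CPM of Hba-a2, 4814 CPM of Hbb-bs, a beta-globin gene, 190.5 CPM of Alas2 and a hemoglobin share of 1.72% in replicate 1. The other 3 KO hypoxia libraries averaged 1143, 951, 950.4 and 37.6 CPM for these genes and 0.371% for the share. Both beta- and alpha-globin genes remained above KO normoxia without replicate 1, with log2 differences of 1.53 for Hbb-bs and 1.59 for Hba-a2 (edgeR adjusted p = 0.0101 and 0.0108).

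Other called genes were high in the same library. Replicate 1 had 15.8 CPM of Flt4, 28.8 CPM of Abcc9, 27.8 CPM of A2m, 27.5 CPM of Cebpd, 15.8 CPM of Capg, 24.4 CPM of Acer2 and 16.1 CPM of Osmr. The other 3 libraries held 17.1 to 18.5 CPM of Abcc9, and averaged 10.2, 15.9, 14.5, 8.75, 11.8 and 11.8 CPM for the remaining genes in that order. Of these, Osmr was not called without replicate 1 (edgeR adjusted p = 0.0654), and the other 6 were. Ccnf was the exception in both library and direction: KO hypoxia replicate 2 was low at 3.41 CPM, against 3.76 CPM on average in the other 3.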

How the results depend on the processing

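The count of 202 calls became 833 without the expression filter, 755 by DESeq2, 46 and 42 by limma on log2(RPKM + 1) and log2(RPKM + 0.1), 30 in the 7 KO libraries alone, 1 beyond 1.5-fold, 94 in libraries with Y-linked transcripts and 68 with the Y-linked term and without KO hypoxia replicate 1, and ranged from 2 to 463 when 1 KO library was left out. RLE scaling gave 189, no composition factor 245, a 1 CPM filter 227, the Y-linked term 201 and the replicate block 174. The cause of these shifts was not tested. The 0 interaction calls became 55 without the filter, 5 by DESeq2, 2 by either limma fit, 1 with the replicate block, 10 in libraries with Y-linked transcripts and 0 to 1 when 1 library was left out (1 without KO normoxia replicate 3). The 5 flox calls became 67 by DESeq2 and 0 to 45 when 1 library was left out (45 without flox normoxia replicate 3). The hemoglobin difference was 0.238 to 0.695 percentage points in the same leave-one-out runs. Of the 62 called genes that the rule gives, 51 passed with the block and 39 without KO hypoxia replicate 1. With the Y-linked term and without that replicate 35 passed, and 9, 1 and 5 passed without KO normoxia replicates 1, 2 and 3. Beside the genes given with a blocked value, the block changed no other call among the named genes. No called gene that the rule gives changed sign, which the separation of the KO groups in called genes made unlikely when a library was left out. Uncalled values near 0 did, such as Epas1 (-0.016 without KO hypoxia replicate 1), Aplnr (-0.067 with the Y-linked term) and the glucocorticoid-response median (-0.056 without KO hypoxia replicate 1), and the 1 flox call without flox hypoxia replicate 2 was lower. Il1b, at 0.272 to 0.714 CPM in the KO libraries, rests on few counts.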

Other observations

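Genes of cell division were not called in the KO brain. Of 20 cell-cycle genes 0 passed by edgeR, with 7 at an unadjusted p under 0.05 and 2 calls by DESeq2, and the median log2 difference was 0.33, 0.23 without replicate 1 and -0.054 in flox brains. Top2a, a topoisomerase of dividing cells, had 4.75, 4.00, 4.50 and 4.12 CPM in KO hypoxia replicates 1 to 4, against 2.58, 2.89 and 2.91 CPM in KO normoxia replicates 1 to 3, so the groups did not overlap (0.63 ± 0.21, SE, edgeR adjusted p = 0.156). Mki67, another proliferation marker, overlapped (0.39 ± 0.18, SE, edgeR adjusted p = 0.343). The 12 genes of the CCM complex and its partners had 0 calls by edgeR and DESeq2, 4 at an unadjusted p under 0.05 and a median of 0.035. Krit1, the gene of the first CCM protein, was 0.024 ± 0.056 (SE, edgeR adjusted p = 0.896), and Slco1c1, whose promoter drives the Cre, was 0.14 ± 0.27 (SE, edgeR adjusted p = 0.869).

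Regional transcripts varied among the KO libraries. Ttr, the transthyretin of choroid plexus, had 309.8, 317, 274 and 418 CPM in KO hypoxia libraries, against 278, 1.95 and 297 CPM in KO normoxia libraries, so KO normoxia replicate 2 was nearly devoid of it. The 10 choroid plexus genes had 0 calls by edgeR and DESeq2, 0 at an unadjusted p under 0.05. Striatal projection neuron markers summed to 430.0 to 592 CPM in the KO hypoxia libraries and 436 to 441 CPM in the KO normoxia libraries, with a median log2 difference of 0.16 and 0 of 11 called (1 at an unadjusted p under 0.05, 0 by DESeq2). Dentate granule cell markers had a median of 0.059 with 0 of 10 called (2 at an unadjusted p under 0.05, 0 by DESeq2). Pituitary hormone genes were near 0, with 4 of 7 at 0 in all KO libraries and 0 of 3 called (0 at an unadjusted p under 0.05, 0 by DESeq2).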
